A study of Rattus norvegicus with 4 samples.

Results

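The output regulators of the circadian clock were followed in 4 RNA-sequencing libraries from rat liver. The members were *Dbp*, *Tef*, *Hlf*, *Nfil3*, *Ciart*, *Usp2*, *Bhlhe40*, *Bhlhe41* and *Rora*, taken as the rows whose gene symbol is that name. Of these 9 genes, 6 had a row, among 16999 gene symbols in all. No row carried the symbols *Hlf*, *Bhlhe41* or *Rora*, and these 3 genes were not analysed here. The animals were wild-type rats that inhaled sevoflurane (4.5%) or desflurane (6%), both inhaled halogenated anesthetics. The 0 h animal of an agent was decapitated at loss of consciousness, so the controls had inhaled their agent too, and the 6 h animal stayed anesthetized for that time. Each agent thus has a 0 h and a 6 h group, each is a single library, and no value has a replicate error. Anesthetized and control livers were taken 6 h apart, so the duration of anesthesia and the hour of day cannot be told apart in any comparison of 6 h with 0 h. Strain, sex, age and light schedule of these rats are not given here by the labels.

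The circadian clock is a loop in which the factors BMAL1 (gene *Arntl*) and CLOCK bind E-box elements and switch on their own repressors. The same factors drive a layer of output regulators that pass the rhythm on to metabolism, and liver is a tissue in which these rhythms are strong. *Dbp*, *Tef* and *Hlf* encode the PAR bZIP activators, which bind D-box elements in genes of drug and lipid metabolism, and *Nfil3* (E4BP4) encodes a repressor that binds the same elements. *Ciart* and the paired genes *Bhlhe40* and *Bhlhe41* (DEC1 and DEC2) encode repressors of BMAL1 and CLOCK, *Usp2* encodes a deubiquitinating enzyme, and *Rora* encodes a nuclear receptor that activates *Arntl* and *Nfil3*.

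Promoter windows of 300 bases, from 250 before to 50 after the gene start, were read from RefSeq (build GRCr8) and matched 8 of the 9 members by symbol. They are shown for the 3 members with a row whose window holds an E-box, the element bound by BMAL1 and CLOCK, and for the opposed pair *Dbp* and *Nfil3*. Capitals mark the E-box CACGTG, which reads the same on both strands. The windows lie at chr2:186112197-186112496 (- strand) for *Ciart*, chr7:115206577-115206876 (+ strand) for *Tef*, chr4:143174200-143174499 (+ strand) for *Bhlhe40*, chr1:105312006-105312305 (+ strand) for *Dbp* and chr17:12432126-12432425 (+ strand) for *Nfil3*, each written 5′ to 3′ along the gene.
Ciart: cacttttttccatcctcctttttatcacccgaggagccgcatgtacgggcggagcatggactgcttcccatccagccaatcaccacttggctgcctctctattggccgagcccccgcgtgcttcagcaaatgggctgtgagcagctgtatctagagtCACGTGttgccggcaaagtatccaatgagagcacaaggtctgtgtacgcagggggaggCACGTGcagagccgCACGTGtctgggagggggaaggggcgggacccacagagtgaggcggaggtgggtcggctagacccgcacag
Tef: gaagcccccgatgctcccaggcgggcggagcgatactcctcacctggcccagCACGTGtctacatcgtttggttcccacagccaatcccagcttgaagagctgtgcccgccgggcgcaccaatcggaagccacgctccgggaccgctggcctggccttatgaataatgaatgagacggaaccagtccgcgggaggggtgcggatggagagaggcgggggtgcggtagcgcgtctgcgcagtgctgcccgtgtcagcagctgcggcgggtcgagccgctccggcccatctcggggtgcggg
Bhlhe40: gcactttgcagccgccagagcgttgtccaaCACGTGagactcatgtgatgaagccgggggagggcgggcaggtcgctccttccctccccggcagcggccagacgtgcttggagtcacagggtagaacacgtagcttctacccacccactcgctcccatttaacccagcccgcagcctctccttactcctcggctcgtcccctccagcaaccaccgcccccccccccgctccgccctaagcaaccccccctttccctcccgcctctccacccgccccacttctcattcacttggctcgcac
Dbp: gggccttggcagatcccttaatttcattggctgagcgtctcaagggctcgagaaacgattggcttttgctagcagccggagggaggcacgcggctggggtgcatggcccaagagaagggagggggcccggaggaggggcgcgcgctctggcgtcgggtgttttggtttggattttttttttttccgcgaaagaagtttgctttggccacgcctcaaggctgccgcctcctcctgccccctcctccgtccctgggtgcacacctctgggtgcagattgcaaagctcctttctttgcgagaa
Nfil3: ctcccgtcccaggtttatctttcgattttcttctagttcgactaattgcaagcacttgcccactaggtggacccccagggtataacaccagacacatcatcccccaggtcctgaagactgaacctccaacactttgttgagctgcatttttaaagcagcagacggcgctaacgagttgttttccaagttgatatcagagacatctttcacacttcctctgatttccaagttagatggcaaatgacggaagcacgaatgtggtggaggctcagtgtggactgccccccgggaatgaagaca

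The *Ciart* window held 3 copies of CACGTG, beginning at -93, -35 and -21 from the gene start. The *Tef* window held 1 copy at -198 and the *Bhlhe40* window 1 copy at -220. Of all 33469 promoter windows, 6.42% held at least 1 copy and 19 windows (0.0568%) held 3 or more. The windows of *Dbp*, *Nfil3*, *Usp2* and *Rora* had no copy, and that of *Bhlhe41* had 1, at -48. The D-box letters TTATGTAA and TTACGTAA and the ROR element letters TAGGTCA, searched on both strands, occurred in 0 of the 8 windows, against 1.01% and 2.63% of all windows. These matches describe the letters of the windows only.

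The PAR bZIP activators were at low levels in both controls and at high levels in both anesthetized animals. Abundance is given as TPM, a value per gene length and library size. *Dbp*, on chromosome 1 from 101687896 to 101692845 in rn6, stood at a TPM of 0.400 in sevoflurane 0 h, 87.9 in sevoflurane 6 h, 1.92 in desflurane 0 h and 44.8 in desflurane 6 h. Both 6 h libraries lay far above both 0 h libraries, by 219.6-fold with sevoflurane and 23.4-fold with desflurane. *Tef*, on chromosome 7 from 123043503 to 123058606, stood at 4.19, 29.1, 7.25 and 19.7 in the same order. The groups of 0 h and 6 h did not overlap for this gene either, and the ratios were 6.93 and 2.72. *Dbp* was the scarcer of the pair in both controls, where the TPM of *Tef* was 10.5-fold and 3.78-fold higher, and the more abundant in both 6 h libraries, by 3.02-fold and 2.28-fold. Its share of the summed TPM of the pair was 8.71% and 20.9% at 0 h and 75.1% and 69.5% at 6 h, sevoflurane first. By rank within a library, *Dbp* held place 10245 of 16999 in sevoflurane 0 h and 774 at 6 h, and place 8163 in desflurane 0 h and 1295 at 6 h.

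**Figure D1:**
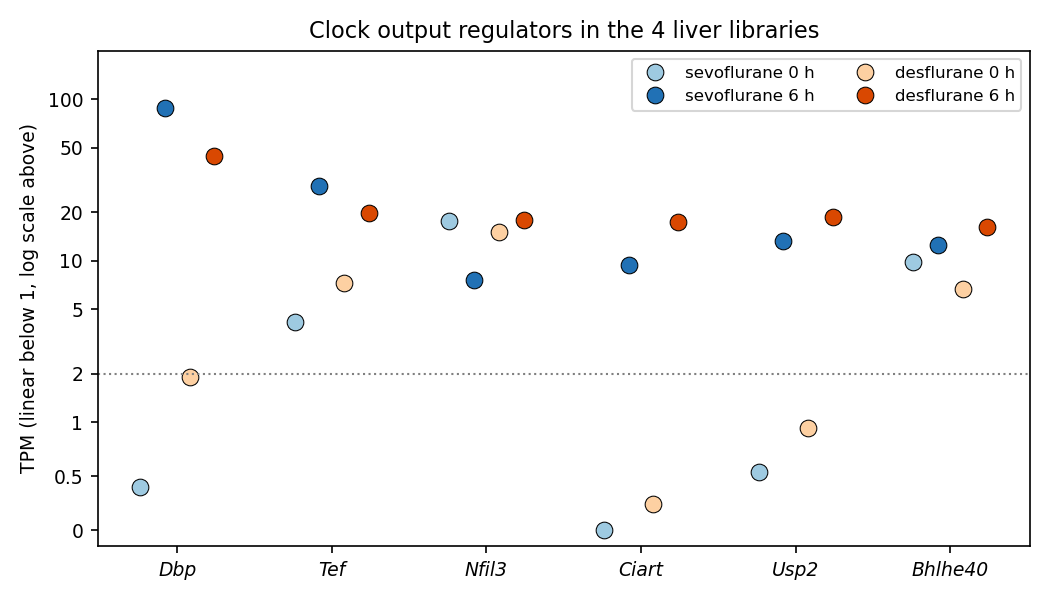
TPM of the 6 output regulators with a row in each of the 4 libraries (1 point per library, linear below 1 and logarithmic above, dotted line at a TPM of 2). For *Dbp*, *Tef*, *Ciart*, *Usp2* and *Bhlhe40* both 6 h points lie above both 0 h points, while *Nfil3* is lowest in sevoflurane 6 h, at 7.66.

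*Nfil3*, the repressor that competes with the PAR bZIP activators, followed another pattern. The gene, on chromosome 17 from 12261102 to 12276316, stood at a TPM of 17.7 in sevoflurane 0 h, 7.66 in sevoflurane 6 h, 15.2 in desflurane 0 h and 18.0 in desflurane 6 h. Only the sevoflurane 6 h library was low, and the other libraries lay close together. With sevoflurane the 6 h level was 2.31-fold lower than its control, and with desflurane it was 1.18-fold higher. Set against desflurane 0 h, the level in sevoflurane 6 h was 1.98-fold lower, under the 2-fold limit used below.

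The balance of activators and repressor differed between 0 h and 6 h with both agents. The summed TPM of *Dbp* and *Tef* was 4.59 in sevoflurane 0 h and 117 in sevoflurane 6 h, beside 17.7 and 7.66 for *Nfil3*. In the desflurane libraries the sum was 9.17 at 0 h and 64.5 at 6 h, beside 15.2 and 18.0. *Nfil3* exceeded the summed activators by 3.85-fold and 1.66-fold in the controls, and the activators exceeded *Nfil3* by 15.3-fold and 3.59-fold at 6 h. The activator sum was 25.5-fold higher at 6 h with sevoflurane and 7.04-fold higher with desflurane, beside the 2.31-fold lower and 1.18-fold higher *Nfil3*. *Hlf*, the other PAR bZIP activator, is not in these sums. In whole liver, fewer cells that hold a transcript and less of it per cell cannot be told apart.

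**Figure D2:**
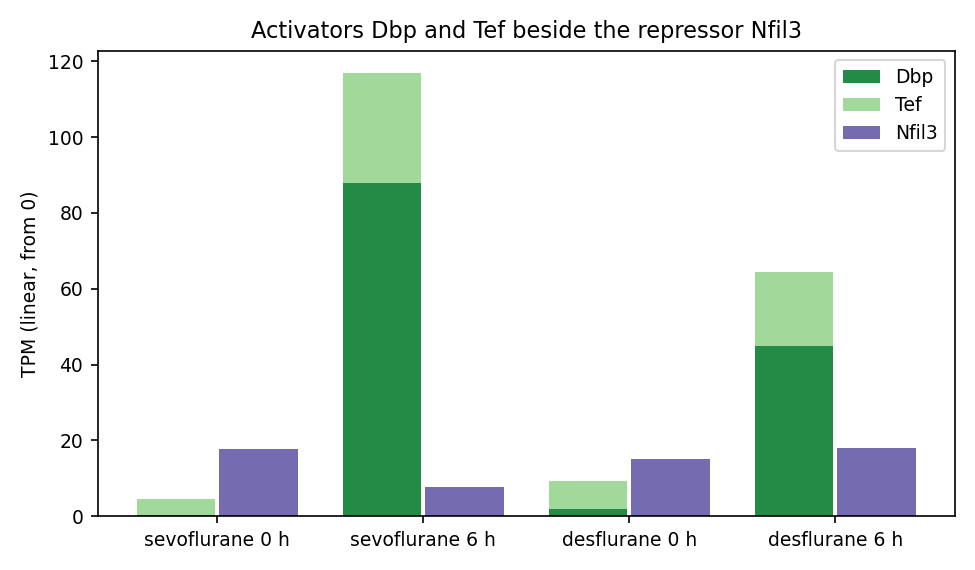
Summed TPM of the activators *Dbp* and *Tef* (stacked bars) beside the TPM of the repressor *Nfil3* in each library, on a linear axis from 0, 1 library per group. *Nfil3* is the higher bar in both 0 h libraries and the lower bar in both 6 h libraries.

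The remaining members included the lowest control values. *Ciart*, on chromosome 2 from 197987705 to 197991198, was listed at 0 in sevoflurane 0 h and stood at a TPM of 9.46 in sevoflurane 6 h, 0.241 in desflurane 0 h and 17.5 in desflurane 6 h. It was 72.4-fold higher with desflurane, and no fold is given for sevoflurane because of the 0. *Usp2*, on chromosome 8 from 48406595 to 48430886, stood at 0.536, 13.4, 0.943 and 18.7 in the same order. It was 24.9-fold higher with sevoflurane and 19.8-fold higher with desflurane, so for this gene the ratios of the agents lay close together. *Bhlhe40*, on chromosome 4 from 140703619 to 140709319, stood at 9.86, 12.6, 6.69 and 16.2. Its levels were the least varied of the members with a higher 6 h level, with ratios of 1.28 and 2.42. Low control values were thinly covered. The mean depth per base in sevoflurane 0 h was 0.944 for *Dbp* and 1.26 for *Usp2*, and in desflurane 0 h it was 0.833 for *Ciart*, against 32.3 to 295 for these genes in the 6 h libraries. Read counts are not part of the tables, which leaves these values without an interval.

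The order of the members by TPM differed between control and anesthetized animals. In sevoflurane 0 h the order was *Nfil3*, *Bhlhe40*, *Tef*, *Usp2*, *Dbp* and *Ciart*, and in sevoflurane 6 h it was *Dbp*, *Tef*, *Usp2*, *Bhlhe40*, *Ciart* and *Nfil3*. In desflurane 0 h it was *Nfil3*, *Tef*, *Bhlhe40*, *Dbp*, *Usp2* and *Ciart*, and in desflurane 6 h *Dbp*, *Tef*, *Usp2*, *Nfil3*, *Ciart* and *Bhlhe40*. In desflurane 6 h all but *Dbp* lay between 16.2 and 19.7, and without replicates the order of these 5 genes cannot be resolved. The summed TPM of the 6 genes was 32.7 and 32.2 in the controls and 160.0 and 135 at 6 h.

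For the comparison with all genes, a gene was called when the larger TPM of a pair was above 2 and the ratio of the pair was above 2, with no p-value. With sevoflurane 4 of the 6 members (*Dbp*, *Tef*, *Ciart* and *Usp2*) were called higher, where 5.04% of 8270 genes were, and *Nfil3* was called lower, where 3.71% were. With desflurane 5 members (*Dbp*, *Tef*, *Ciart*, *Usp2* and *Bhlhe40*) were called higher, where 4.10% of 8372 genes were, and 0 were called lower, where 5.55% were. *Dbp*, *Ciart* and *Usp2* were at or under a TPM of 2 in both controls and entered only through the libraries in which they are high. The median change of log2(TPM + 1) over the 6 members was 2.88 with sevoflurane and 2.33 with desflurane, beside 0.05 and -0.10 over the 9201 genes whose TPM averaged 1 or more. Without *Ciart* the medians were 2.53 and 1.33. Among the 9201 genes ranked by this change, *Dbp* held place 4 with sevoflurane and 8 with desflurane, *Ciart* 19 and 9, *Usp2* 20 and 13 and *Tef* 33 and 164. *Bhlhe40* held places 2134 and 205, and *Nfil3* was 157 from the lowest with sevoflurane and 1751 from the highest with desflurane. Both 6 h libraries lay above both 0 h libraries for 5 members, *Nfil3* being the exception. The same was true of 22.9% of the 8557 genes above a TPM of 2 in some library, and 28.0% of these genes, but 0 members, lay below in both.

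A change shared by both agents was tested with limma on log2(TPM + 1), fitted across 8024 genes with the agent as a block, which leaves 1 residual degree of freedom. By limma, *Dbp* rose by 4.98 ± 0.36 (SE, adjusted p = 2.56e-06), *Ciart* by 3.64 ± 0.25 (adjusted p = 1.97e-06), *Usp2* by 3.28 ± 0.23 (adjusted p = 2.29e-06) and *Tef* by 1.93 ± 0.26 (adjusted p = 0.00046). Each was higher in both pairs of animals. *Dbp*, *Ciart* and *Usp2* passed the filter of this fit (a mean TPM of 2 or more) only through the 6 h libraries in which they are high, so their p-values are a description. The limma estimate for *Bhlhe40* was 0.74 ± 0.23 (adjusted p = 0.080), with both pairs positive, and that for *Nfil3* was -0.44 ± 0.27 (adjusted p = 0.425), with a negative value in the sevoflurane pair and a small positive one in the desflurane pair. Of all genes fitted, 4.69% passed in the upward and 3.94% in the downward direction, 8.62% in all. The spread in this test combines the disagreement between the agents, on 1 degree of freedom, with the variance shared across genes, which carried 10.9 prior degrees of freedom and so most of the weight. With no filter on low values the same fit passed 0 of the 6 members, with 5 at an unadjusted p under 0.05 and adjusted p-values from 0.051 to 0.67. In fits without the agent block, *Nfil3* passed by limma at -1.0 (adjusted p = 0.034) when desflurane 6 h was left out, and its estimate was 0.12 when sevoflurane 6 h was left out. In each of these fits the 6 h group is a lone library, assumed to vary like the others, and the spread comes from the controls and the shared variance. Its adjusted p from limma ranged from 0.034 to 0.82 over all settings.

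The controls, both killed at loss of consciousness, were not equal in these genes. *Dbp* was 4.79-fold, *Usp2* 1.76-fold and *Tef* 1.73-fold higher in desflurane 0 h than in sevoflurane 0 h, and *Ciart* was 0.241 against a listed 0. *Bhlhe40* was 1.47-fold and *Nfil3* 1.16-fold lower there. By the rule of size, 0 of the 6 members were called between the controls, where 1.96% of 8263 genes were higher and 0.799% lower (2.76% in all), since *Dbp*, at 1.92, was under the minimum TPM. These control differences were smaller than the differences of the same genes between 6 h and 0 h for *Dbp*, *Tef*, *Ciart* and *Usp2*. With the controls exchanged, the ratio of *Dbp* was 45.8 for sevoflurane 6 h and 112 for desflurane 6 h, an order opposite to that against the own controls. *Bhlhe40* was called with desflurane against its own control only, since its ratio to sevoflurane 0 h was 1.64.

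The anesthetized animals were then compared with each other. *Nfil3* was 2.34-fold higher in desflurane 6 h than in sevoflurane 6 h and was the only member called, where 2.21% of 8229 genes were higher, 1.77% lower and 3.99% either. *Dbp* was 1.96-fold and *Tef* 1.48-fold lower in desflurane 6 h. *Ciart* was 1.85-fold, *Usp2* 1.40-fold and *Bhlhe40* 1.29-fold higher there. The D-box activators were thus lower and the D-box repressor higher in desflurane 6 h, with differences that cannot be set against any spread between animals. These ratios share their libraries with the comparisons of 6 h with 0 h.

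Loci assembled from the reads without regard to gene names gave a further view of the members, from the same reads. An assembled locus on the strand of the gene overlapped each member in every library, except *Ciart* in sevoflurane 0 h. *Dbp* was assembled over its whole annotated span of 4950 bp in the other 3 libraries, and in sevoflurane 0 h as a piece of 1094 bp. The *Bhlhe40* locus began at the annotated start in all 4 libraries. In sevoflurane 0 h and 6 h it ran 742 and 673 bp beyond the annotated end. The *Nfil3* locus covered the annotated 15215 bp in 3 libraries and began 4.18 kb inside the gene in desflurane 0 h.

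*Tef* and *Usp2* were assembled with other limits than the annotated gene. The *Tef* locus began between 9413 and 9536 bp before the annotated start and ended at the annotated end in all 4 libraries, controls included. Its span of 24517 to 24640 bp is close to the 24751 bp of the RefSeq gene in GRCr8, where the annotated span in the deposited tables is 15104 bp. The *Tef* promoter window shown above is not that of the outer start, as its gene start lies 9.65 kb inside the RefSeq gene. For *Ciart*, *Usp2* and *Rora* the windows also sit inside the RefSeq gene, by 1.53, 2.61 and 633.5 kb. No window was read at the start of the main *Usp2* locus described next. For *Usp2* the main locus at 6 h began 15.2 kb inside the annotated gene with either agent and ran 1737 and 1637 bp beyond its end. In the controls *Usp2* was assembled in 2 pieces each, all of them in the same part of the gene, the first starting 15.3 kb inside the gene in sevoflurane 0 h and 19.0 kb inside it in desflurane 0 h. Before the main locus only a short locus of 682 bp in sevoflurane 6 h and an unstranded locus of 673 bp in desflurane 6 h were assembled. When the TPM of the assembled loci on the gene strand was summed in place of the gene rows, 4 members were called higher with sevoflurane and 4 with desflurane. By these sums *Usp2* stood at 3.03, 16.2, 3.30 and 17.9, in the order of libraries used above. *Dbp* stood at 1.20, 89.0, 2.26 and 44.6 and *Tef* at 7.56, 35.8, 11.0 and 23.4. For these genes the control values were higher and the ratios of 6 h to 0 h smaller than from the gene rows. The size of those ratios thus depends on the measure. *Bhlhe40*, at 8.60 and 16.2 with desflurane on that measure, was no longer called higher, and *Nfil3*, at 16.0 and 8.31 with sevoflurane, was no longer called lower.

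**Figure D3:**
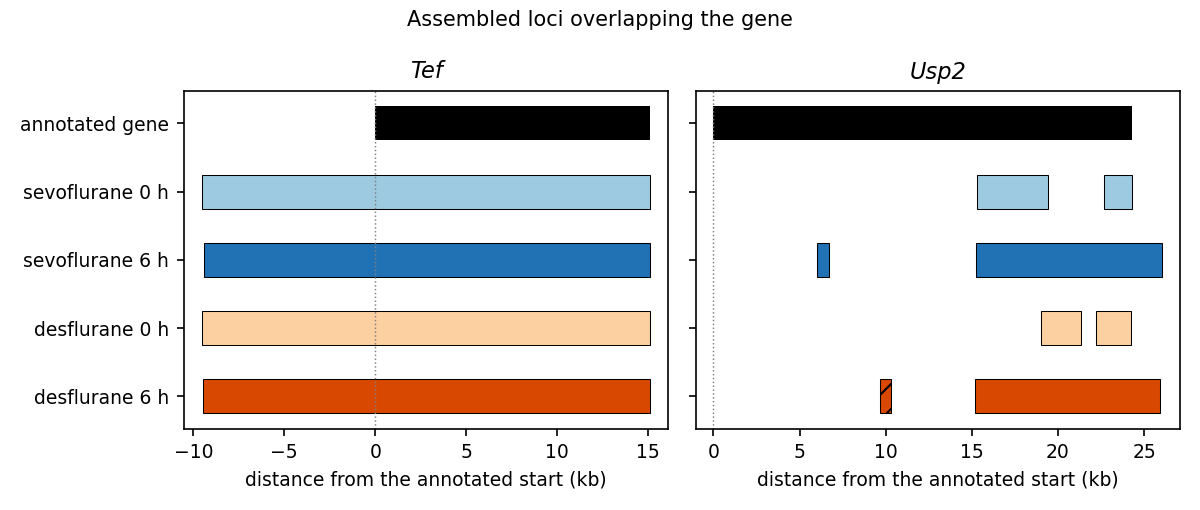
Annotated span (black) and assembled loci (colored bars, 1 row per library) of *Tef* and *Usp2*, as distance in kb from the annotated gene start. The hatched bar has no strand. The *Tef* locus begins before the annotated start in all 4 libraries, and the main *Usp2* locus of both 6 h libraries begins 15.2 kb inside the gene.

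The genes next to the members gave mostly other patterns. *Sphk2*, on the other strand and 126 bp beyond the end of *Dbp*, stayed between a TPM of 5.41 and 6.10 in the 4 libraries, and *Ca11*, 604 bp before *Dbp*, between 0.151 and 0.200. *Mrps21* and *Aph1a* beside *Ciart*, *Auh* and *Ror2* beside *Nfil3*, *Thy1* and *Mfrp* beside *Usp2*, *Zc3h7b* before *Tef* and *Arl8b* after *Bhlhe40* were called with neither agent. The exceptions were *Tob2*, 20.9 kb beyond *Tef*, and *Itpr1*, 122.9 kb before *Bhlhe40*. *Tob2* stood at 1.60, 9.04, 5.36 and 9.66 and was called higher with sevoflurane only, and *Itpr1*, a calcium channel of the endoplasmic reticulum, stood at 5.99, 17.8, 5.47 and 20.3 and was called higher with both agents.

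The loop upstream of the members was examined as a list of core clock genes, of which 13 had a row. Sevoflurane had 6 of the 13 called higher and 2 lower, desflurane 6 higher and 1 lower, where 8.75% and 9.65% of all genes were called in either direction. *Per1*, *Per3*, *Cry2*, *Nr1d1* and *Nr1d2* were called higher with both agents. All of these encode repressors of the loop. *Per1* stood at 0.352, 6.05, 1.38 and 9.95, *Nr1d2* at 4.21, 24.7, 8.88 and 24.5 and *Cry2* at 2.57, 6.61, 2.09 and 7.94, in the order of libraries used above. *Per3* stood at 0.207, 11.8, 0.355 and 3.71 and *Nr1d1*, which encodes REV-ERB alpha, at 0.407, 7.65, 2.41 and 7.95. *Arntl*, the activator of the loop, was called lower with both, at 22.6, 0.426, 17.6 and 2.14. *Per2* stood at 1.24, 2.89, 1.51 and 2.10 and was called with sevoflurane only, and *Cry1*, at 4.99, 3.31, 2.28 and 1.51, with neither. The median change of the list was 0.30 with sevoflurane and 0.81 with desflurane.

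**Figure D4:**
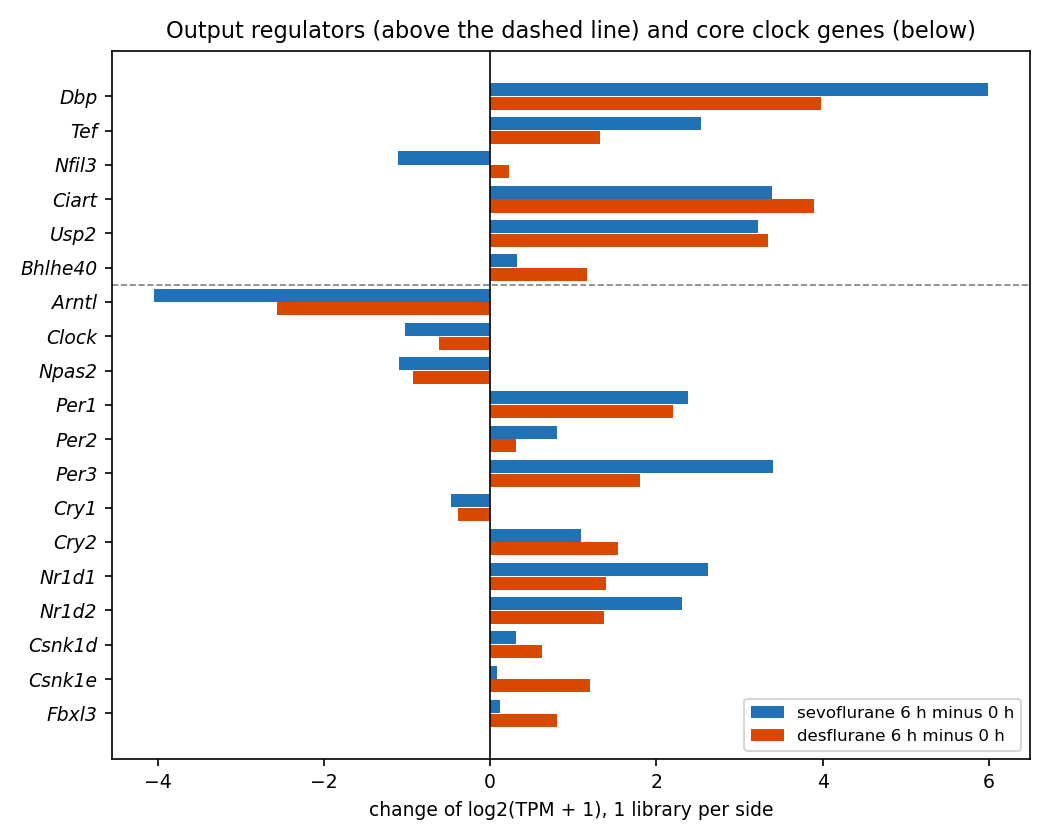
Change of log2(TPM + 1) from 0 h to 6 h for the 6 output regulators (above the dashed line) and 13 core clock genes (below), with sevoflurane in blue and desflurane in orange, 1 library on each side. *Dbp* has the longest bar in each color, *Arntl* the most negative, and *Nfil3* with sevoflurane is the only negative bar of an output regulator. The sevoflurane bar of *Ciart* starts from a listed 0.

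*Nfil3* is known as a target of REV-ERB and ROR, and 8 other such genes were taken as a list. Of these 8 genes, 7 had a row and 5 were above a TPM of 2 on at least 1 side of the pair, with either agent. With each agent 2 were called lower and 0 higher, *Arntl* and *Clock* with sevoflurane and *Arntl* and *Avpr1a* with desflurane, where 3.71% and 5.55% of all genes were called lower. The medians were -0.47 and -0.62, beside 0.05 and -0.10 over all genes. *Npas2*, at 1.44, 0.140, 1.33 and 0.226, was below the minimum TPM for a call in all 4 libraries. So was *Elovl3*, listed at 0 in all but desflurane 6 h (0.0886), and both genes enter the medians. *Arntl*, *Clock*, *Npas2* and *Cry1* are also in the list of core clock genes, so their values here are not a separate result. *Nfil3* was thus lower together with *Arntl* in sevoflurane 6 h, while in desflurane 6 h *Arntl* was low and *Nfil3* was not.

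Downstream, 13 genes known in liver as targets of the PAR bZIP activators were taken as a list, and all had a row. Sevoflurane had 8 called higher, desflurane 6, and neither had any called lower, where 5.04% and 4.10% of all genes were called higher and 3.71% and 5.55% lower. Between the controls 3 of the list were called higher in desflurane 0 h than in sevoflurane 0 h, where 1.96% of 8263 genes were. *Acot3* and *Acot4*, called with sevoflurane only, had ratios of 0.95 and 1.08 against desflurane 0 h. Against the control of the other agent, 7 of the list were called higher with sevoflurane and 5 with desflurane. The median changes of the list were 0.99 and 0.89, beside 0.05 and -0.10 over all genes. Called higher with both were *Alas1*, *Por*, *Cyp2b1*, *Cyp2b2* and *Ppara*. *Alas1*, the rate-limiting enzyme of heme synthesis, stood at 73.5, 582, 60.9 and 979, and *Por*, the electron donor of the cytochromes P450, at 21.8, 538, 28.6 and 386. *Cyp2b1* stood at 5.73, 790.0, 12.1 and 465. *Ppara*, a nuclear receptor of fatty acid oxidation, stood at 9.70, 32.1, 12.7 and 43.6. *Cyp7a1*, the rate-limiting enzyme of bile acid synthesis, stood at 41.2, 186, 31.4 and 59.1 and was called with sevoflurane only. *Nr1i3*, which encodes the receptor CAR, stood at 25.8, 26.3, 44.0 and 29.6 and was called with neither, as was albumin. *Cyp2b1* and *Cyp2b2* are closely related and their shared reads make each value uncertain.

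The genes whose pattern was most like *Dbp* were found by the Euclidean distance of log2(TPM + 1), centered over the 4 libraries, among 9201 genes. They were *Por* (distance 1.03), *Sds* (1.03), *Cyp2b1* (1.05), *Zfp354a* (1.34) and *Upp2* (1.49). All were low in both controls and high in both 6 h libraries, and *Zfp354a*, for example, stood at 5.18, 152, 16.8 and 174. Nearest to *Nfil3* were *Sntb1* (0.142), *Arid4b* (0.186), *Apol3* (0.211), *Dynlt1* (0.244) and *Tank* (0.280), each low in sevoflurane 6 h alone. *Sntb1* stood at 4.16, 1.35, 3.53 and 3.68. With 4 libraries many genes can share such a shape, and these distances are a description.

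The libraries held between 3.50 and 5.57 Gb of aligned bases, sevoflurane 0 h being the shallowest, and between 7881 and 8094 genes above a TPM of 2. All 7 hepatocyte markers had a TPM of at least 86.4 in every library. The Kupffer cell list (6 markers with a row) had a summed TPM of 348 and 278 with sevoflurane at 0 h and 6 h. With desflurane it was 311 and 364. Like *Nfil3*, this sum was lowest in sevoflurane 6 h and highest in desflurane 6 h. The endothelial sum (4) lay between 44.4 and 55.0. The stellate sum (5) lay between 27.6 and 32.7, with *Des* at or under a TPM of 2. The cholangiocyte sum (3) lay between 6.61 and 8.08, with *Krt19* and *Sox9* at or under a TPM of 2. The lymphocyte list (5) lay between 9.81 and 10.7 at 0 h and 5.46 and 6.98 at 6 h, lowest in sevoflurane 6 h. *Cd3e* and *Ms4a1* were at or under a TPM of 2. In this list 2 genes were called with sevoflurane and 1 with desflurane. The red blood cell list (5) stood at 451 and 728 at 0 h and 1215 and 1342 at 6 h. It was thus higher at 6 h with both agents, as were the members other than *Nfil3*. In it 3 genes were called with sevoflurane and 0 with desflurane, and *Hba-a1* and *Slc4a1* were at or under a TPM of 2. The part of these lists in the members' levels was not tested. Of the pancreatic acinar list (5), *Prss1* and *Pnlip* were listed at 0 in all libraries, and *Cpa1* and *Amy2a3* were at or under a TPM of 2. The sum lay between 24.5 and 30.1 and was mostly *Cela1*.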

How the data were processed

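The labels describe stranded total RNA libraries from pieces of rat liver, with 1 library per group. The submitters' processing notes name HISAT2, SAMtools, StringTie and the build rn6, and give no versions. The authors deposited 1 gene table per library. The deposited TPM column was handled as a score, since assembled loci alone make up the whole TPM total and named genes add 0.766 to 0.789 of it. The deposited FPKM was used only with the deposited coverage, a mean depth signal per base, to obtain aligned bases. No counts were used.

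Rows of 200 bp or less were left out and rows of a symbol were summed, which took 17455 symbols to 16999. Each of the 6 members had a single row. The call rule (TPM above 2, ratio above 2) has no test. The limma fit (limma 3.58.1, R 4.3.3, eBayes with trend, two-sided, Benjamini-Hochberg over 8024 genes whose TPM averaged 2 or more, adjusted p under 0.05) used all 4 libraries. Both steps were tested on simulated data. Every simulated gene had the same noise, the agents did not differ and only genes of higher abundance were changed. The simulation therefore does not show how the steps behave on genes with low or unequal control values. Promoters came from the RefSeq table of GRCr8, whose coordinates were not mixed with those of rn6. Members and lists were chosen with earlier results of these data known. The rule for named genes took all members, listed genes called with both agents and 7 clock genes, the 5 genes nearest in pattern to *Dbp* and to *Nfil3*, flanking genes and overlapping assembled loci. *Clock*, *Npas2*, *Avpr1a*, *Elovl3*, *Cyp7a1*, *Nr1i3*, *Acot3*, *Acot4* and albumin were named after their values were seen. The alternatives changed the ratio, the minimum, the scaling, the row choice, the pseudocount, the control, the block and the libraries.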

Additional observations from a re-analysis of the deposited data

Results flagged for a closer look

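The changes of *Nfil3* with the agents had opposite signs. The change of its log2(TPM + 1) from 0 h to 6 h was -1.11 with sevoflurane and 0.23 with desflurane, and each value rests on a single pair of animals. The desflurane value is smaller than 0.42, the median size of the gap between the controls over the 6 members with a row. For *Nfil3* itself that gap was -0.21 (desflurane 0 h minus sevoflurane 0 h), about as large as the desflurane value. Against the other control the desflurane value was 0.02, so no movement with desflurane is shown. The difference between these changes was not tested, since no residual spread remains once each agent has its own change.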

How the results depend on the processing

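Of the 152 recomputed main results, 129 kept their value within the tolerance used. The tolerance was 1.5-fold for a count and 0.42 log2 for a median, the median size of the gap between the controls over the 6 members. Some of the 129 results could not differ. Each member has a single row and a mean TPM above 1, so the choice of row and the mean of at least 1 left the members unchanged. A ratio above 3 left 0 members lower with sevoflurane, 3 higher with desflurane and 0 higher in desflurane 6 h against sevoflurane 6 h, 5 core clock genes with sevoflurane and 1 REV-ERB and ROR target with sevoflurane. A ratio above 1.5 called 1 member higher between the controls, 2 higher and 1 lower between the 6 h libraries, 11 core clock genes with desflurane and 4 REV-ERB and ROR targets with desflurane. Between the controls, 1 member was higher with a TPM minimum of 1, 2 with no minimum and 1 after scaling without *Rn7sl1*. The call of *Nfil3* with sevoflurane was lost (0 members lower) with the control of the other agent and with assembled loci, an alternative added after seeing the data. The median change was 3.58 with sevoflurane and 2.80 with desflurane at a pseudocount of 0.1, 1.63 and 1.5 at 5, and 2.38 and 2.84 against the other control. Without *Ciart*, also added later, it was 1.33 with desflurane.

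In the limma fit 4 members passed. Of these, *Dbp*, *Ciart* and *Usp2* met the filter only through the 6 h libraries in which they are high, so the count is a description. When a library was left out, fitted without the agent block, the estimate lay between 4.45 and 5.51 for *Dbp* and 3.23 and 4.05 for *Ciart*. It lay between 3.06 and 3.51 for *Usp2* and 1.60 and 2.26 for *Tef*. These fits leave a lone library at 0 h or at 6 h. With no filter 0 passed, with 25 of 13629 genes passing in all against 692 of 8024. Without the agent block and with all 4 libraries, 488 of 8024 genes passed. The estimate for *Nfil3* turned to 0.12 without sevoflurane 6 h. The cause of these changes was not tested. No paired analysis other than by agent was possible because the labels give no replicate numbers by which to pair libraries. The limma fit already holds the agent as a block, and the same 4 members also passed without it, under the same filter. The tables hold no counts, so the precision of values below a TPM of 2 is unknown.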
